A study of Caenorhabditis elegans with 2 samples.

Results

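Autosomal introns held 1221 of the 6626 peaks of the tagged nuclear hormone receptor NHR-129 in L2 larvae of Caenorhabditis elegans, and these intronic peaks are described here. A peak was counted when its summit lay on an autosome inside the body of a protein-coding gene and in no exon of a coding gene. Summits were left out if they lay near a coding gene's start, in the promoter window that reaches 1000 bp upstream and 100 bp downstream of it. The 5224 autosomal peaks further comprised 2433 in such windows, 1301 between genes and 269 in exons. Chromosome X held 332 more intronic peaks, which were left out.

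The peaks came from chromatin immunoprecipitation and sequencing of whole larvae of strain OP339, in 1 group of 2 biological replicates with no second condition. The strain carries the mutation unc-119(ed3) on chromosome III and the transgene wgIs339, from which NHR-129 is made as a fusion with enhanced green fluorescent protein (eGFP). Animals of both sexes were pooled, their age is recorded as unknown, and the library size range as 150 to 350. All values are from the transgene-bearing strain, and an untagged strain was not analysed here. Chromatin came from whole animals, so the cells in which a site was occupied cannot be told apart.

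Nuclear hormone receptors are transcription factors with a zinc-finger DNA-binding domain and a ligand-binding domain, and nematodes carry a greatly expanded family of them, most with no known ligand. Introns of worm genes hold enhancers, the promoters of shorter transcripts of the same gene, and small genes such as those for transfer RNAs, small nucleolar RNAs and microRNAs. A peak in a gene therefore need not belong to the start of the gene's longest transcript.

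The sequences at 8 summits are shown because the first 3 are the strongest intronic peaks and the others are the strongest on chromosomes II to V that hold, within the stretch shown, 1 of the 2 letter strings most in excess at intronic summits. Each runs 60 bases to either side of the summit on the plus strand of WBcel235, the assembly also called ce11, and was read from the RefSeq genome. Capitals mark the E-box CACGTG or the GA repeat GAGAGAGA, read on either strand, so that a repeat on the minus strand shows as TCTCTCTC. The peaks in Y62E10A.13, E01G4.3 and Y43F8B.2 hold the E-box, those in miz-1 and W06H8.6 hold the repeat, and that in daf-14 holds both. The peaks in zip-2 and zip-3 hold neither within the stretch shown.
zip-2, chrIII:833836-833956: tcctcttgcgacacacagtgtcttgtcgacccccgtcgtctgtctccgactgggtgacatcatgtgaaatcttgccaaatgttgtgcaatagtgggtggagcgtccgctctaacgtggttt
zip-3, chrII:13954201-13954321: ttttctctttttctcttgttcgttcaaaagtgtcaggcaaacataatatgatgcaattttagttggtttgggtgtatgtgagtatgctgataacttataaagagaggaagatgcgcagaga
Y62E10A.13, chrIV:13395398-13395518: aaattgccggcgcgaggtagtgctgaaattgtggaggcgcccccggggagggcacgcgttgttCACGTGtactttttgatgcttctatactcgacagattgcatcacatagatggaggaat
miz-1, chrIV:10821880-10822000: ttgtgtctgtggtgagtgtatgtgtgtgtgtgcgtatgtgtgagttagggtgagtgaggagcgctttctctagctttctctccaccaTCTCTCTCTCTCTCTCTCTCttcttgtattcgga
W06H8.6, chrV:6224600-6224720: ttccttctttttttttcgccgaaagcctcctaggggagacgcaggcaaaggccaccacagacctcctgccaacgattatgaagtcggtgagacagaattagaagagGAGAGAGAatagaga
daf-14, chrIV:10252437-10252557: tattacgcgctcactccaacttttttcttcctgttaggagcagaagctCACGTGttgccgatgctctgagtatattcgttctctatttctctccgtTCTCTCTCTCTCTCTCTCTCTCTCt
E01G4.3, chrII:13469269-13469389: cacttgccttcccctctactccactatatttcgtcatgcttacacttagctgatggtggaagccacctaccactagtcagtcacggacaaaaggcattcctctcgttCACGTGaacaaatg
Y43F8B.2, chrV:19529320-19529440: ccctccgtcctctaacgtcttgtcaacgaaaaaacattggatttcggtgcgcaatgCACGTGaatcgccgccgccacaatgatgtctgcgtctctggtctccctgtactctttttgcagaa

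Signal is a score per peak that the authors' caller gave, on a scale that the sources used here do not give. It orders the peaks within a list and is not comparable between the pooled and the single-replicate lists. The strongest peak of the whole series was intronic. It lay in intron 1 of zip-2, which encodes a basic leucine zipper (bZIP) factor of the response to bacterial infection. Its signal was 6467 in the pooled list, 3380 in replicate 1 and 3104 in replicate 2, where it ranked 1 in every list. The summit, at position 833896 of chromosome III, lay 192 bp upstream of a shorter zip-2 transcript. zip-3, which encodes another bZIP factor, held the next intronic peak, with a pooled signal of 1905 and signals of 1143 and 781 in replicates 1 and 2. That summit lay in intron 2 of the gene on chromosome II and ranked 6 among all peaks. The gene Y62E10A.13 on chromosome IV was next, with a pooled signal of 1411 and signals of 741 and 678 in the replicates. The zip-2 value thus stood well above those of zip-3 and Y62E10A.13 in each replicate.

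The signals of the 20 strongest intronic peaks reached down to 591, at F53C11.5. Among their host genes were dmd-6, of the doublesex family of transcription factors, with a pooled signal of 926, and zfp-1, a chromatin protein related to human AF10, with 797. The nuclear hormone receptor gene nhr-19 held a peak of 716 and drap-1, a transcriptional cofactor gene, one of 638. Genes of stress and growth signalling were present too. wdr-23, whose product restrains the stress factor SKN-1, held a peak of 614, and mnk-1, a kinase gene acting on translation, one of 604. The autophagy gene epg-9 held one of 823, and larp-1, an RNA-binding protein gene, one of 646. Of these 20 peaks, 8 lay near an internal transcript start, 5 near the start of a non-coding gene and 12 in a first intron. The others were in T24B8.3, F44E7.5, Y111B2A.12, F22F7.7, miz-1, C39E9.8, W06H8.6 and nadk-2.

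Fewer intronic than promoter peaks were among the strongest, and no difference from intergenic peaks was detected. Both odds ratios rose above 1 in a setting that selects intronic peaks by signal. The call against promoter peaks was lost there and in the stronger part of the list. The median pooled signal was 111 in introns (quartiles 81.7 and 188), 118 between genes, 132 in promoter windows and 88.7 in exons. Over the other autosomal peaks together, the ratio of medians was 0.899 in the pooled list, 0.954 in replicate 1 and 0.905 in replicate 2. A pooled signal of 226 or more marked the strongest 20% of autosomal peaks, and 223 intronic peaks reached it, or 18.3% (95% Wilson interval 16.2 to 20.5). The share was 22.9% in promoter windows, an odds ratio of 0.751 (95% interval 0.628 to 0.895) with an adjusted p of 0.00305 by Fisher's exact test. Between genes it was 18.4%, an odds ratio of 0.993 (0.807 to 1.22) with an adjusted p of 0.959. These two-sided tests were adjusted together over 8 comparisons of peak classes and treat peaks as independent. Neighbouring peaks are not independent, so the p-values are too small. When only the strongest peak of each host gene was kept, both odds ratios turned. Against promoter peaks it was then 1.04 (adjusted p = 0.686 by the same exact test). Against intergenic peaks it was 1.37, a call with the intronic share higher (adjusted p = 0.0244 by the same exact test). That setting selects intronic peaks by the signal being compared and leaves the other classes whole. The rise in the intronic share is thus built into it. In the stronger part of the list the difference from promoter peaks lost its call (odds ratio 0.743, adjusted p = 0.086 by the same exact test). The strongest 20% was set anew within that part. The odds ratio stayed near the 0.751 of the whole list, with 553 intronic peaks in place of 1221.

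Nearly every intronic peak had a call in each replicate. A call overlapping by at least 1 bp was found for 1219 in replicate 1 and for 1215 in replicate 2, and 1213 (99.3%) had both. This share is partly set by the selection of the list, which uses both replicate lists. The replicate signals had a Spearman correlation of 0.785 and a Pearson correlation of 0.835 on the log2 scale over those 1213 peaks, given as a description since the peaks share both libraries. The same Spearman value was 0.843 in promoter windows and 0.807 between genes. The log2 ratio of replicate 1 to replicate 2 had a median of 0.32 and an SD of 0.52 across the intronic peaks. A common offset between the lists thus ran through most of them.

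Summit positions were less tight in introns than in promoter windows. Both replicate summits lay within 100 bp of the pooled summit at 90.9% of intronic peaks and at 94.7% of promoter peaks, an odds ratio of 0.555 (0.423 to 0.730) with an adjusted p of 7.43e-05 by Fisher's exact test. Against intergenic peaks, at 93.0%, the odds ratio was 0.752 (0.557 to 1.01) and the adjusted p 0.113, which passed once windows around all coding transcript starts were left out (odds ratio 0.671, adjusted p = 0.0218 by the same exact test). The difference from promoter windows lost its call by Fisher's exact test in the stronger part of the list (adjusted p = 0.155). It turned with 1 peak per host gene (odds ratio 1.16, adjusted p = 0.591 by the same exact test). That setting keeps the strongest intronic peak of each gene and every promoter peak, so the classes were not thinned alike. The largest disagreements in rank were at weak peaks. In glb-11, a globin gene, the signals were 65.3 in replicate 1 and 9.09 in replicate 2, which are ranks 3509 and 29262. In W04A4.6 they were 17.6 and 45.8, and at a weak peak in Y111B2A.12 they were 18.1 and 52.7. C08G9.1 and rfip-1 had the higher value in replicate 1, at 57.6 against 15.6 and 51.4 against 13.9.

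**Figure D1:**
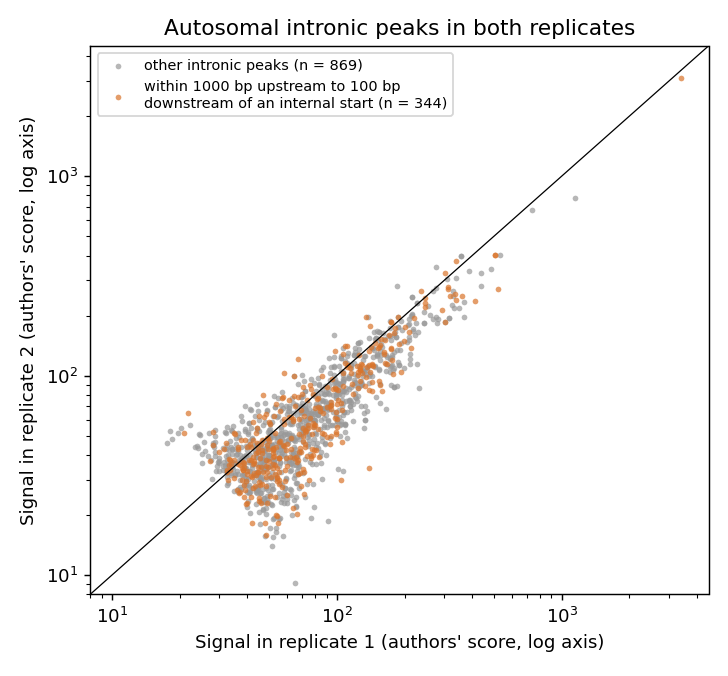
Signal of each autosomal intronic peak in replicate 1 (horizontal) and replicate 2 (vertical), both on log axes in the authors' units, for the 1213 peaks with a call in both; orange points lie near an internal transcript start and the line marks equal values. The points form 1 cloud centred slightly below the line of equality, with zip-2 alone at its upper end, at 3380 and 3104, and the orange and grey points overlap throughout.

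The threshold passed through a continuous range of signals. The 3 weakest intronic peaks lay in F36D4.5, W09B6.4 and lag-1, the last encoding the transcription factor of Notch signalling, with pooled signals of 63.5 in each. The strongest intronic calls just below the threshold lay in nhr-34 (63.3), acy-1 (63.3) and cpl-1 (63.2). The lag-1 peak had replicate signals of 188 and 174, which belong to stronger overlapping calls. A further 5128 of 19106 autosomal pooled calls below the threshold, or 26.8%, met the same location rule. Among the peaks above it the intronic share was 23.4% (22.2 to 24.5). The location rule also has edges in distance. The 15 intronic peaks up to 100 bp beyond the upstream edge of a promoter window had a median signal of 161, beside 112 for 83 promoter peaks up to 100 bp inside it.

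Autosomal introns that could hold such a summit made up 25.9 Mb, or 31.4% of the autosomes. The density of peaks there was 47.2 per Mb. It was 67.1 per Mb between genes, 143 per Mb in promoter windows and 13.3 per Mb in exons. Intronic sequence thus carried fewer peaks per base than the other non-exonic sequence. By chromosome the density was 45.5 per Mb on I (255 peaks), 54.4 on II (238), 48.7 on III (241), 49.7 on IV (268) and 39.3 on V (219). Each autosome was divided into 3 equal lengths, and the middle one held 563 intronic peaks, or 46.1% (43.3 to 48.9), on 27.6% of the intronic bases. The middle density ranged from 57.4 per Mb on IV to 89.6 per Mb on II, and the outer densities from 24.5 to 53.8 per Mb. Each chromosome's middle was denser than both of its own outer lengths, least so on IV. The middle share did not differ detectably from that of intergenic peaks (42.7%, odds ratio 1.15, 0.980 to 1.35, adjusted p = 0.135 by Fisher's exact test). It also did not differ detectably from that of promoter peaks (48.0%, odds ratio 0.928, 0.807 to 1.07, adjusted p = 0.390 by the same exact test).

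Within genes the peaks lay more often in long and early introns than the bases did. Introns of 1000 bp or more held 905 peaks, 74.1% (71.6 to 76.5), on 48.4% of the intronic bases, and those of 3000 bp or more held 560, 45.9%, on 20.2%. Introns shorter than 300 bp held 94 peaks, 7.70% on 16.9% of the bases. First introns of any transcript held 650 peaks, 53.2% (50.4 to 56.0), on 33.0% of the bases. The excess over bases is a description of position only, and no test was made against it. Signal did not follow intron length in the same way. The median was 123 in introns under 1000 bp and 108 in longer ones, and 113 in first introns beside 111 in later ones. Bases that the reference marks as repeats (in lower case) were 53.9% of the intronic bases and held 173 summits, 14.2% (12.3 to 16.2). Whether reads in repeats could be placed by the authors' aligner was not tested.

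**Figure D2:**
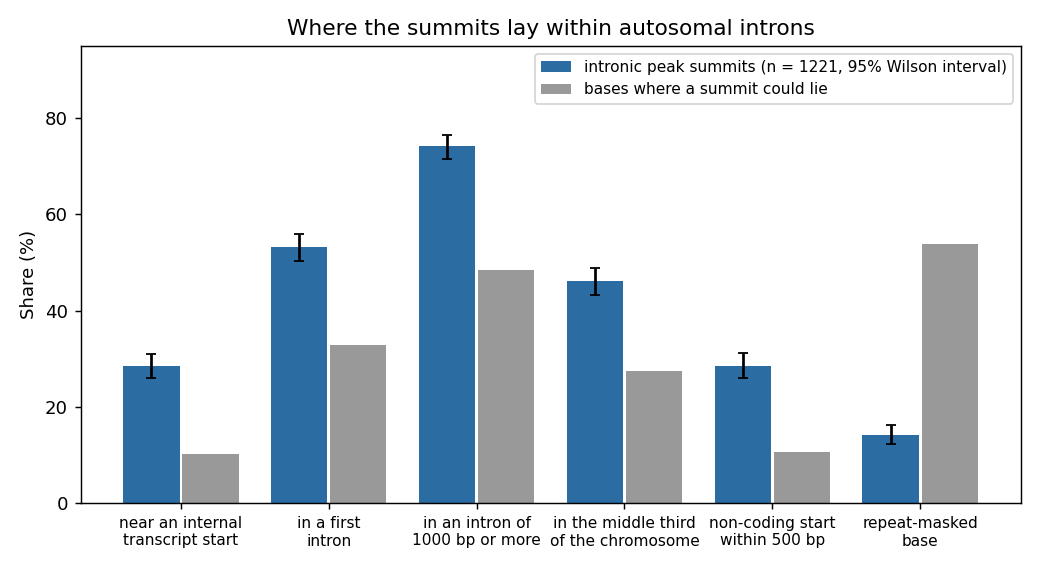
Share in percent of the 1221 summits (blue, with 95% Wilson intervals) and of the intronic bases where a summit could lie (grey), for 6 features of location. The summits exceed the bases in every feature but the last, where 14.2% of summits lay on the 53.9% of bases that are repeat-masked.

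A large group of the intronic peaks lay where a shorter transcript begins. Internal transcript starts were defined as starts of coding transcripts that are not the gene's own outermost start, 8022 in all on the autosomes. A window of the same extent around one, 1000 bp upstream and 100 bp downstream, held 348 intronic peaks, 28.5% (26.0 to 31.1), on 10.4% of the intronic bases, and 346 of them lay at an internal start of their own host gene. They fell in 303 host genes, and 235 were also in a first intron. Their median position was -289.5 bp from the start, negative being upstream, and 124 lay within 200 bp upstream. Their signals were like those of the others, with a median of 112 beside 111. The label intronic thus includes peaks placed as promoter peaks of shorter transcripts. When windows around all coding transcript starts were left out too, the intronic share of autosomal peaks was 16.7%.

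Around internal starts the density of intronic peaks was 209 per Mb in the 200 bp upstream. It was 60.2 per Mb in the 200 bp downstream and 38.2 per Mb from 200 to 400 bp downstream, beside 47.2 per Mb in all intronic sequence counted. The higher density reached beyond the window, at 140 per Mb from -1400 to -1200 bp. The peaks close to such starts included well-known developmental genes. In lin-28, an RNA-binding regulator of larval timing, the summit lay 17 bp upstream, with a pooled signal of 359 and signals of 174 and 186 in replicates 1 and 2. In zip-1, a bZIP gene, it lay 18 bp upstream, with 351 pooled and 199 and 149 in the replicates. In sax-7, a cell adhesion gene of the L1 family, it lay 48 bp upstream, with 209 pooled and 106 and 103 in the replicates. The Hox gene lin-39 (23 bp) and the Meis-type homeobox gene unc-62 (79 bp) had summits as close, with pooled signals of 142 and 99.0. Of lin-28, zip-1 and sax-7, the replicate signals differed most in zip-1, but replicate 1 had the higher signal at most intronic peaks. By rank within each list zip-1 differed least, at 534 and 682 in replicates 1 and 2. The ranks were 725 and 413 in lin-28 and 1781 and 1371 in sax-7.

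**Figure D3:**
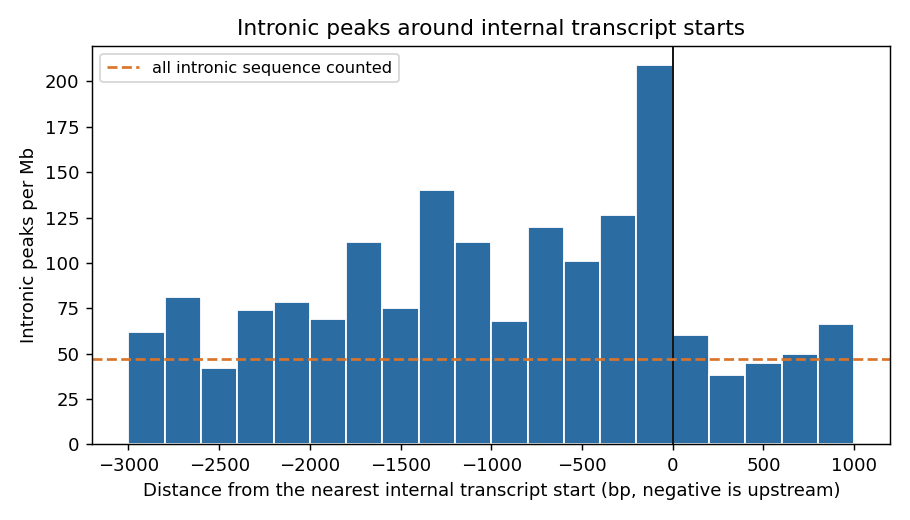
Intronic peaks per Mb (vertical) in bins of 200 bp by distance from the nearest internal transcript start (horizontal, negative upstream), with the density over all intronic sequence counted as a dashed line at 47.2. The bin just upstream of the start stands highest, at 209 per Mb, and the bins downstream, up to 1000 bp, lie between 38.2 and 66.6 per Mb, on either side of the dashed line.

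Another group of sites lay near the starts of non-coding genes. Genes of every non-coding class but pseudogenes were counted, and they need not lie inside the intron. A non-coding gene start lay within 500 bp of 349 intronic summits, 28.6% (26.1 to 31.2), on 10.7% of the intronic bases. The share was 17.0% at promoter peaks, an odds ratio of 1.96 (1.66 to 2.31) with an adjusted p of 1.12e-14 by Fisher's exact test. It was 30.2% at intergenic peaks, an odds ratio of 0.925 (0.776 to 1.10) with an adjusted p of 0.437, and with promoter windows of 2000 bp upstream the intronic share was called lower (odds ratio 0.759, adjusted p = 0.0132 by the same exact test). Promoter windows are near coding genes by definition, and the call against them was lost when exons of non-coding genes were also left out (odds ratio 1.21, adjusted p = 0.0895 by the same exact test). That setting removes summits in such exons from the intronic class but not from the promoter class. Part of the fall is thus built into it. Peaks near non-coding starts had a median signal of 130, and 24.4% of them were in the strongest 20% of autosomal peaks. Only 74 were also near an internal transcript start, and 598 intronic peaks were near neither kind of start.

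By class, transfer RNA (tRNA) genes began within 500 bp of 77 intronic peaks, 6.31% on 0.368% of the bases. Small nucleolar RNA (snoRNA) genes, which guide the modification of other RNAs, did so at 40, 3.28% on 0.352%. MicroRNA genes did so at 16, 1.31% on 0.181%, and other genes annotated as ncRNA at 254, 20.8% on 5.11%. A peak can be near starts of several classes, as col-99 and col-85 were near tRNA and ncRNA genes, so these counts overlap. Genes of piRNAs, short germline RNAs that silence transposons, were near 44 peaks, 3.60% on 5.06% of the bases, so this class alone was not in excess. The tRNA share was 2.69% at intergenic and 1.23% at promoter peaks, a difference that was not tested. The examples that follow were chosen after their values were seen, from the 4 strongest peaks of each class. The cyclin E gene cye-1 held a peak with its summit 68 bp upstream of a tRNA gene, with a pooled signal of 463 and signals of 260 and 201 in replicates 1 and 2. In brd-1, a DNA repair gene, the summit lay 23 bp downstream of the start of a tRNA gene, with 386 pooled and 218 and 167 in the replicates. In ppat-1 it lay 52 bp upstream of a snoRNA gene, with 532 pooled and 267 in each replicate. In K01F9.2 it lay 266 bp upstream of mir-90, with 463 pooled and 276 and 196 in the replicates. Each of these peaks was present in both replicates. Copies of tRNA genes are nearly identical, so reads within them can be shared between copies.

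Intronic summits were rich in guanine and cytosine and in a few short strings. The median GC content of the 201 bp around the summit was 44.3% at intronic peaks and 33.3% in intronic sequence in windows of that length. It was 43.8% at intergenic and 40.8% at promoter peaks. Strings were searched on both strands in the same 201 bp and set beside 128828 adjoining intronic windows. GAGAGAGA, a GA repeat, was present at 237 intronic summits, 19.4% (17.3 to 21.7), and in 1.27% of the windows. CACGTG, the E-box bound by basic helix-loop-helix factors, was at 125, 10.2% (8.66 to 12.1), and in 2.97% of the windows. Neither string contains any other that was searched. CCGCCC was at 9.09% and in 3.46% of the windows, and the fork head core TGTTTAC at 3.85% and in 1.88%. The strings made only of A and T were scarcer at the summits. TAATTA, a homeobox core, was at 2.95% and in 9.75% of the windows, and a run of 10 A at 2.13% and in 9.86%.

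The hexamer AGGTCA, recognised by many nuclear receptors of other animals, was at 97 intronic summits, 7.94% (6.56 to 9.60), and in 4.51% of the windows. It lay a median of 53.5 bp from the summit, beside 34.5 bp for the GA repeat and 35.5 bp for the E-box. A direct repeat of this hexamer, 2 copies of AGGTCA on 1 strand with 1 base of any kind between them, was at 0 of 1221 summits, which allows a share of up to 0.246%, and in 0.000776% of the windows. AAGTCA, a related core, was at 8.35% of summits and in 8.60% of the windows. Against other peaks, 26 comparisons were made by Fisher's exact test, two-sided and adjusted together. Against promoter peaks the GA repeat (10.03% there, odds ratio 2.16, 1.77 to 2.64, adjusted p = 3.71e-13) and the E-box (6.54%, odds ratio 1.63, 1.27 to 2.10, adjusted p = 0.00140) were more frequent in introns by the exact test. TGATAA, the GATA-factor site, was at 17.9% of intronic and 13.3% of promoter summits (odds ratio 1.42, 1.17 to 1.72, adjusted p = 0.00266 by the exact test). It was in 16.2% of the intronic windows, and its call was lost in a window of 150 bp to either side (adjusted p = 0.543 by the exact test). AGGTCA missed the threshold against promoter peaks (5.75%, odds ratio 1.41, 1.07 to 1.86, adjusted p = 0.0657 by the exact test). None of the 13 strings compared with intergenic peaks passed. For the GA repeat (21.4% there) the odds ratio was 0.886 (0.726 to 1.08, adjusted p = 0.417) and for the E-box (9.92%) 1.04 (0.792 to 1.35, adjusted p = 0.918) by the exact test.

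Among the intronic peaks of the strongest 20%, 23.3% held the GA repeat and 13.9% the E-box, beside 18.5% and 9.42% of the other intronic peaks. Several other strings went the other way, among them AGGTCA, at 4.93% beside 8.62%, and TGATAA, at 10.8% beside 19.4%. These shares were not tested. Of the sites shown above, daf-14, a Smad gene of the dauer pathway, held both strings at a pooled signal of 485, with 301 and 185 in replicates 1 and 2. W06H8.6 also held both, at 635 pooled and 275 and 352 in the replicates, with its E-box outside the stretch shown. The order of the replicates thus differed between these 2 peaks.

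**Figure D4:**
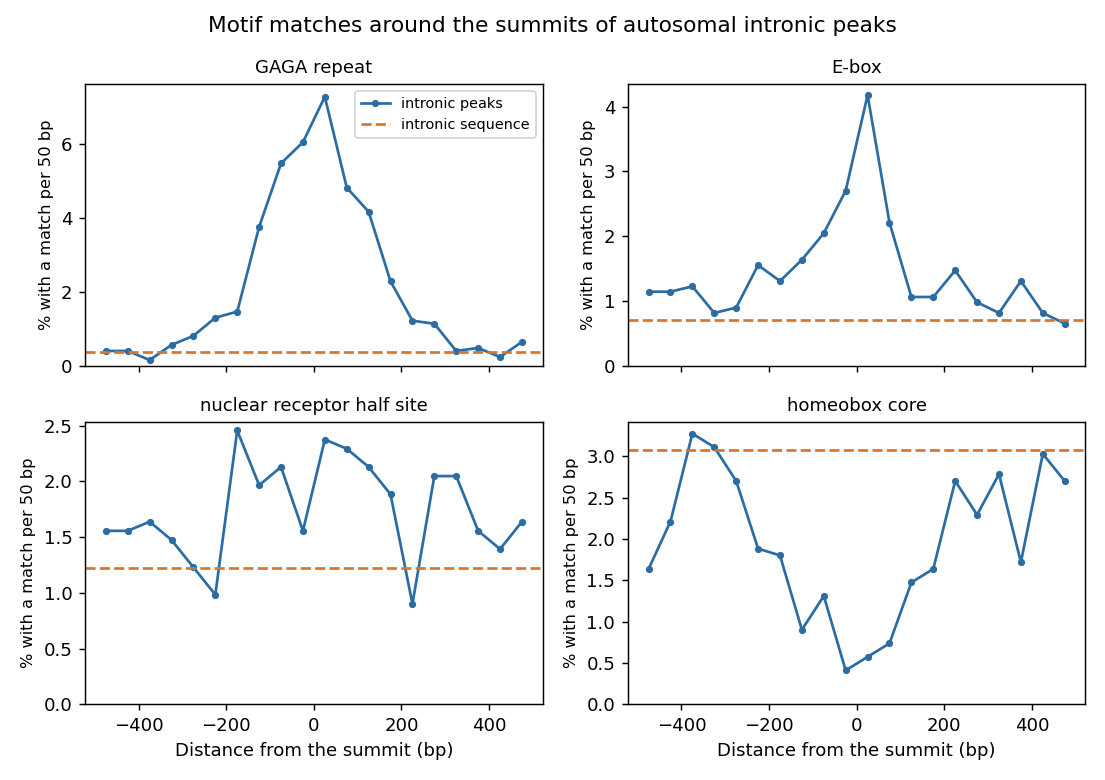
Percent of the 1221 intronic peaks with a match per 50 bp (vertical) by distance from the summit in bp (horizontal), for the GA repeat, the E-box and 2 other strings, with the share of 50-bp intronic windows as a dashed line. The GA repeat reaches 7.29% and the E-box 4.18% in the 50 bp after the summit on the plus strand, above the dashed lines at 0.394% and 0.706%.

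The peaks lay in 753 host genes. That is 4.88% of the 15424 autosomal coding genes that had intronic sequence where a summit could lie. Hosts had far more of that sequence, a median of 4403 bp beside 706 bp over all those genes. The host share was 0.920% of genes with under 1000 bp, 5.19% with 1000 to 3000 bp, 16.6% with 3000 to 10000 bp and 40.3% with more. A single peak was found in 521 hosts, and 109 hosts held 3 or more, together 465 peaks. In all 912 introns had a peak and 176 had more than 1, so many of the peaks are neighbours. The most, 11, were in each of fkh-7, a fork head gene, T28B11.1 and ppfr-1, a regulatory subunit gene of protein phosphatase 4. akap-1, an anchor of protein kinase A, had 10, and egl-27, a chromatin regulator gene, 9. These are counts of summits, and some of the intervals overlap, so they are not all separate regions. In ppfr-1 the interval from 9381053 to 9382031 was counted at more than 1 summit. Other intervals overlapped in ppfr-1, akap-1 and fkh-7 but not in T28B11.1 or egl-27. Among all intronic peaks, neighbouring intervals overlapped in 37 cases. The fkh-7 peaks ran along 20623 bp of intronic sequence and the strongest had a signal of 582, with 329 and 250 in replicates 1 and 2. The akap-1 peaks were weaker, the strongest at 226.

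Many hosts also had a peak at their own start. A peak in the gene's own promoter window was found for 2638 genes, 17.1% of the 15424. Among hosts of an intronic peak it was 238 of 753, or 31.6%, and among the 14671 other genes 2400, or 16.4%. The difference was present in genes with under 1000 bp of intronic sequence (36.0% and 16.4%), 1000 to 3000 bp (40.9% and 15.2%) and 3000 to 10000 bp (31.3% and 18.2%). It was not seen in longer ones, at 18.5% and 19.2%. These shares were not tested. In 125 of the 238 hosts the strongest intronic peak exceeded the promoter peak. zip-2 was one, with 305 at its start and 6467 in the intron, and mnk-1 another, with 455 and 604. fkh-7, T28B11.1, daf-5 and kin-1 had 8 or more intronic peaks each and no peak in their own promoter window. unc-119, the gene mutated in the strain, held 2 intronic peaks of 82.3 and 66.7, and nhr-129 itself held 0.

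Gene groups were described by the share of their genes with an intronic peak, beside the share of all genes in the same bands of intronic length. The groups are named lists and were not tested. They were chosen with earlier results of these data known, so their shares are not independent evidence of enrichment. Developmental timing genes stood highest, with 8 of 12 genes (66.7%, beside 13.5% for their bands). These were lin-28, the nuclear receptor genes nhr-85 and nhr-23, which act in the molting clock, myrf-1, lin-42, the worm period gene, dre-1, lin-66 and alg-2, an Argonaute of the microRNA pathway. lin-28 had the strongest signal, 359, and nhr-85 had 180 at its strongest of 2 peaks, with 104 and 72.7 in replicates 1 and 2. myrf-1 had 163 and lin-42 127, the latter with its summit 79 bp downstream of the start of a gene annotated as ncRNA. Apart from lin-28, these genes thus held peaks of moderate signal, on either side of the intronic median of 111.

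Muscle structure and attachment genes were hosts in 18 of 41 cases (43.9%, beside 14.1%). unc-22, the giant kinase twitchin, held 6 peaks, the strongest at 259, with 148 and 112 in replicates 1 and 2. lev-11, tropomyosin, reached 207, the myosin heavy chain gene unc-54 reached 193 and unc-15, paramyosin, 180. The strongest unc-22 peak had its summit 46 bp upstream of a gene annotated as ncRNA. No muscle gene ranked among the 20 strongest intronic peaks.

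bZIP factor genes were hosts in 10 of 23 cases (43.5%, beside 11.2%), and 2 of them held the strongest intronic peaks, as above. After zip-2 and zip-3 came zip-1 at 351 and skn-1, the Nrf-type factor of oxidative stress, at 326 with 3 peaks. The strongest skn-1 peak had signals of 175 and 151 in replicates 1 and 2, and its summit lay 55 bp upstream of a gene annotated as ncRNA. The others were crh-2, atf-7, crh-1, zip-4, zip-5 and jun-1, between 103 and 300. Fork head, GATA and other endoderm or stress factors were hosts in only 5 of 27 cases (18.5%, beside 13.1%) but held 35 peaks. These were fkh-7, daf-16 with 7 peaks, egl-27 with 9, hlh-30, the TFEB-type lysosome factor, with 7, and hif-1 with 1. daf-16, the FOXO factor of insulin signalling, had 368 at its strongest peak and hlh-30 356. These summits lay 351 bp (daf-16) and 40 bp (hlh-30) downstream of the start of a gene annotated as ncRNA. In this group the peaks were thus concentrated in a few long genes.

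Signal transduction genes were hosts in 16 of 56 cases (28.6%, beside 15.0%), with 45 peaks. They included the insulin receptor gene daf-2 at 416, with 217 and 202 in replicates 1 and 2, and the ERK kinase gene mpk-1 at 452, with 243 and 208. daf-5, a Sno-type partner of Smads, and kin-1, the catalytic subunit of protein kinase A, held 8 peaks each. The polarity kinase gene par-1 held 5, the strongest at 361. The mpk-1 peak and the strongest daf-2 peak lay in long first introns, of 8247 bp and 11981 bp. That daf-2 summit lay 28 bp downstream of the start of the non-coding gene linc-143. The mpk-1 summit had no non-coding start within 500 bp.

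Among other groups, axon guidance and adhesion genes were hosts in 11 of 37 cases (29.7%, beside 21.8%). unc-73, a guanine exchange factor gene, reached 226, unc-33 213 and sax-7 209. The strongest unc-33 summit lay 46 bp upstream of a tRNA gene. Those in unc-73 and sax-7 had no non-coding start within 500 bp. Basement membrane and matrix genes were hosts in 4 of 16 (25%, beside 14.3%), with pxn-1, a peroxidasin, at 278. That pxn-1 summit lay 30 bp upstream of a snoRNA gene. Synapse genes, which have long introns, were hosts in 7 of 52 (13.5%, beside 16.8%), and homeobox genes in 3 of 49 (6.12%, beside 7.86%). The synapse hosts included rab-3, of synaptic vesicles, at 320, unc-43, a calcium-dependent kinase gene, with 6 peaks, and unc-49, a GABA receptor gene. The unc-49 summit lay 4 bp upstream of a gene annotated as ncRNA. The rab-3 summit and the strongest unc-43 summit had no non-coding start within 500 bp. The homeobox hosts were lin-39, mab-5 and unc-62. Neither of these groups stood above the genes of its own length bands.

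Genes of the receptor family to which NHR-129 belongs were hosts in 14 of 243 cases (5.76%, beside 4.15%). nhr-19 held 5 peaks, the strongest at 716 with 438 and 283 in replicates 1 and 2. nhr-34 held 3, up to 318, nhr-46 3, up to 237, and nhr-66 2, up to 231. The fat metabolism regulator nhr-49 held 1 of 80.5. The family as a whole was thus near the background share of 4.88%. Groups with short introns were rarely hosts. Collagen genes were hosts in 4 of 127 cases (3.15%, beside 1.47%) and ribosomal protein genes in 1 of 39 (2.56%, beside 0.920%). Serpentine chemoreceptor genes were hosts in 4 of 1309 (0.306%, beside 2.04%), and their introns held 7.18 peaks per Mb. The collagen peaks in col-99 (252) and col-85 (204) each had their summit beside the start of a tRNA gene, 25 bp downstream in col-99 and 26 bp upstream in col-85. The chemoreceptor hosts were srh-2, with a peak of 509, sre-13, srt-52 and srv-16. The strongest summits in sre-13 and srv-16 lay 30 and 18 bp downstream of the start of a tRNA gene. Those in srh-2 and srt-52 had no non-coding start within 500 bp.

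**Figure D5:**
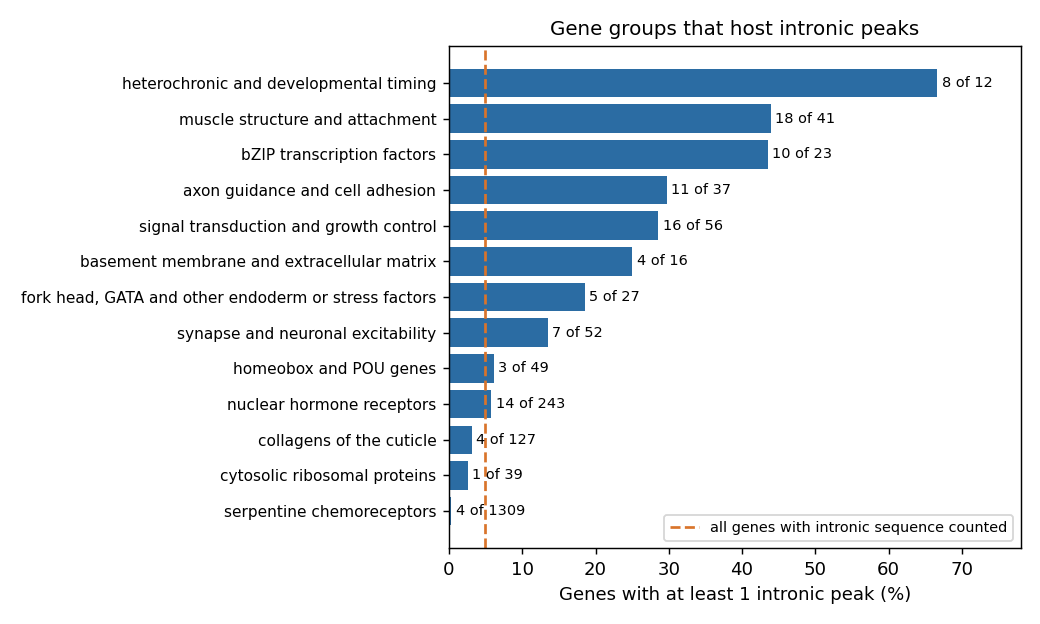
Percent of the genes of each of 13 groups (horizontal) that hold at least 1 intronic peak, with the number of hosts and of genes that have intronic sequence counted beside each bar, and the share over all such genes, 4.88%, as a dashed line. Developmental timing, muscle and bZIP genes have the longest bars and serpentine chemoreceptors the shortest, at 4 of 1309.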

How the data were processed

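Per the sample descriptions the authors called peaks with their background in each replicate and in the pooled reads, against a control, and took the thresholded list by the irreproducible discovery rate. Each list of 30000 calls and the thresholded list were deposited in ce11, used here, and ce10, not used. The deposited signal has no stated scale, and the deposited −log10 q-value was 4.15 at each of the 6626 thresholded peaks and gave no order. The aligner and the caller were not given in the sources used here. Read depths were not stated either, so the depth behind each value is unknown, and intervals cover counting error only.

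Summits were placed on Ensembl release 115 gene models of WBcel235, the assembly of ce11, and sequence came from RefSeq. Coordinates are 1-based. Each pooled peak took the strongest replicate call overlapping it by 1 bp or more, so neighbours can share a call. Intronic, intergenic and promoter peaks were compared by two-sided Fisher's exact tests adjusted after Benjamini and Hochberg and called at 0.05. Shares of bases count intronic bases that meet the location rule. Windows for motifs held 201 bp. Named genes are hosts of the 20 strongest peaks, up to 4 genes a list, the genes with most peaks, the largest rank differences, the peaks at the threshold and the strongest at an internal start. lin-39, mab-5, unc-62 and other hosts beyond these were named after their values were seen.

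The members and lists were chosen with earlier results of these data known. Alternatives were other start windows, exon sets, midpoints, merged or stronger peaks, single replicates, 1 peak per host, and other motif windows and distances. Functions were tested on simulated data. Python 3.11.15, numpy 2.4.6, pandas 2.3.3 and scipy 1.17.1 were used.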

Additional observations from a re-analysis of the deposited data

How the results depend on the processing

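All p-values here are from two-sided Fisher's exact tests. Over 16 settings, 139 values of the main results kept their call or moved little, as did 161 values for single motifs or named hosts. Odds ratios that crossed 1 without a call in either setting are counted among these. With the start window 2000 bp upstream, the intronic share was 21.2%, the share in introns of 1000 bp or more 77.5%, and non-coding starts were called fewer than at intergenic peaks (odds ratio 0.759, adjusted p = 0.0132 by the exact test). With the starts of all coding transcripts the intronic share was 16.7%, the share at internal starts 0 by construction, first introns 47.5% and long introns 77.0%, and close summits in both replicates were called fewer than at intergenic peaks (odds ratio 0.671, adjusted p = 0.0218 by the exact test). With exons of every gene the shares were 20.6% and 76.7% for introns and long introns, and non-coding starts against promoter peaks lost the call (odds ratio 1.21, adjusted p = 0.0895 by the exact test). By construction this setting removes summits in non-coding exons from the intronic class but not from the promoter class. In the stronger part of the list there were 553 intronic peaks (21.4%) in 413 hosts, 71.2% in long introns, with a signal ratio of 0.990. Against promoter peaks the strongest 20%, set anew within that part, lost the call (odds ratio 0.743, adjusted p = 0.086 by the exact test). Close summits did so too (odds ratio 0.592, adjusted p = 0.155 by the exact test). Over the whole list these odds ratios were 0.751 and 0.555. With 1 peak per host gene, which keeps the strongest by construction, there were 742 peaks (15.6%), 31.1% at internal starts and 64.6% in long introns. The signal ratio was 1.07, and 3 odds ratios with a call in either setting turned. These were the strongest 20% against intergenic (1.37, adjusted p = 0.0244 by the exact test) and promoter peaks (1.04, adjusted p = 0.686) and close summits against promoter peaks (1.16, adjusted p = 0.591). Close summits (1.57) and non-coding starts (1.07) against intergenic peaks also crossed 1, with no call in either setting. With 1 replicate alone the signal ratio was 0.898 to 0.958. GATA against promoter peaks lost its call in the stronger part of the list (adjusted p = 0.38 by the exact test) and with motif windows of 150 bp to either side (0.543), where AGGTCA (0.00516) and TAATTA (3.89e-08) gained one. CCGCCC gained one with 50 bp (0.048). Except where the construction is named, the cause was not tested. Close summits could not be computed for 1 replicate alone. No paired analysis was possible because there was 1 group.

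There was 1 strain, no untagged control and no read depth, so background common to tagged strains cannot be told apart from binding of the receptor. Signals are the authors' scores and give no size of occupancy. Neighbouring peaks share introns and libraries, so the tests over peaks give p-values that are too small, and the replicates measure only the spread between these samples.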
